A study of Mus musculus with 15 samples.

Results

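The Sox genes of the SoxB1, SoxC and SoxE groups were followed through the differentiation of optic tissue that had been grown from mouse embryonic stem (ES) cells. The members were taken by symbol from the table of normalized expression values, and all 9 were present among its 23244 entries: Sox1, Sox2 and Sox3 (SoxB1), Sox4, Sox11 and Sox12 (SoxC), and Sox8, Sox9 and Sox10 (SoxE). The tissue was made with SFEBq, a culture in which dissociated ES cells of the line EB5 Rx::GFP+/- reaggregate and form an epithelium at the edge of the aggregate. GFP reports the eye field gene Rax (Rx), so the explanted GFP-positive epithelium marks optic progenitors, and every sample of the series derives from this single line. RNA-Seq libraries were made from 5 groups with 3 biological replicates each. Day 10 Rx::GFP+ is the epithelium as it was explanted. Day 12 +Fgf and Day 15 +Fgf are explants kept in 5 ng/mL human bFgf with 10% FBS, labelled neural retina. Day 12 +Wnt and Day 15 +Wnt are explants given the GSK3 inhibitor CHIR99201 at 3 uM during 24 hours and at 1 uM from then on, labelled RPE (retinal pigment epithelium). Serum is listed for the +Fgf medium, so bFgf and FBS cannot be told apart in these groups, and a group kept to Day 12 or Day 15 without either stimulus is not analysed here. The explants were whole pieces of tissue with no sorting of cells, and the study describes both Day 15 tissues as mixed. In bulk RNA, fewer cells of a type and less RNA per cell cannot be told apart.

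The libraries held between 12556998 and 16175450 reads on genes. Levels are given in the authors' normalized unit, called CPM, in which 1 read was worth 0.0620 to 0.0764. Known markers followed the labels: Rax, the eye field gene that GFP reports, was at 287 to 343 CPM in Day 15 +Fgf but at 5.15 to 5.83 CPM in Day 15 +Wnt, while Tyr, the tyrosinase of pigment cells, was at 23.3 to 30.5 CPM and at 542 to 667 CPM.

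Sox proteins bind DNA with a high mobility group domain related to that of Sry, and they act with partner factors at the same enhancers. SoxB1 factors keep neural progenitors undifferentiated and, with Otx2, switch on Rax when the eye field forms. SoxC factors act in cells that leave the cycle, and Sox4 and Sox11 are needed for retinal ganglion cells to form. SoxE factors are known from glia, cartilage and the neural crest, and in the eye from retinal progenitors, Müller glia and the RPE.

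The 9 genes lie on 9 different chromosomes. In the GENCODE annotation of GRCm38 (mm10), Sox1 (chr8:12395295-12400126), Sox2 (chr3:34650405-34652461), Sox3 (chrX:60891366-60893430), Sox4 (chr13:28948919-28953713), Sox11 (chr12:27334264-27342574) and Sox12 (chr2:152393611-152398063) each occupy 1 uninterrupted exon block. Sox8 (chr17:25565892-25570686) and Sox9 (chr11:112782224-112787760) have 3 exon blocks and Sox10 (chr15:79154908-79165240) has 5. On the opposite strand, Gm26735, a long noncoding RNA, shares 2616 exon bases with Sox4, and the antisense gene 2810468N07Rik shares 329 with Sox8. The entry of 2810468N07Rik was at 1.43 to 2.14 CPM at Day 10, 2.8 to 3.11 CPM and 5.29 to 5.79 CPM in Day 12 and Day 15 +Fgf, and 1.26 to 1.53 CPM and 2.68 to 4.28 CPM in Day 12 and Day 15 +Wnt. The strand setting of the authors' counting is not given in the sources used here, so reads of these partners cannot be told apart from those of Sox4 and Sox8.

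RefSeq promoter windows on GRCm38.p6 were matched for 6 of the 9 genes (Sox1, Sox2, Sox4, Sox8, Sox11 and Sox12). They end at the RefSeq start, which can differ from the GENCODE start given above. The Sox8 window ends next to its GENCODE gene, and those of Sox2 and Sox11 end further upstream of theirs. The windows of Sox1, Sox4 and Sox12 reach into the GENCODE exon block, and most of the Sox1 window lies inside it. The 250 bases before the start are printed for 4 of them: Sox2, Sox8 and Sox11, whose levels were higher in +Fgf than in +Wnt at both days, and Sox4, whose difference turned sign between the days. Capitals mark matches, on either strand, to the motifs named below. Sox2 is on the plus strand (chr3:34649745-34649994), and Sox8 (chr17:25570687-25570936), Sox11 (chr12:27342719-27342968) and Sox4 (chr13:28953700-28953949) are on the minus strand, each written 5′ to 3′ along its own gene.
Sox2: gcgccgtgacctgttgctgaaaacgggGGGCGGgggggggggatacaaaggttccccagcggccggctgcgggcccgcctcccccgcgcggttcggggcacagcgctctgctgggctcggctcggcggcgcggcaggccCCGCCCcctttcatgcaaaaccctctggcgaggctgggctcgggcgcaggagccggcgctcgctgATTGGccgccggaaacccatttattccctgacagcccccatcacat
Sox8: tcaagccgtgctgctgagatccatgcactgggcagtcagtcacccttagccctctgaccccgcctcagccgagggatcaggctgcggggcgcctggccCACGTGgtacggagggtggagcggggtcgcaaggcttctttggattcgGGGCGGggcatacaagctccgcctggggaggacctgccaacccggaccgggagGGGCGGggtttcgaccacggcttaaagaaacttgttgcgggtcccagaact
Sox11: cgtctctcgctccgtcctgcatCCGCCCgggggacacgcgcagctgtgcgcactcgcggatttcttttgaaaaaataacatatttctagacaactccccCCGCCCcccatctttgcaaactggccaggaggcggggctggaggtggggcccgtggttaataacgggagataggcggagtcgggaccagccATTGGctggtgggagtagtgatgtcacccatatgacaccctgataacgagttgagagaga
Sox4: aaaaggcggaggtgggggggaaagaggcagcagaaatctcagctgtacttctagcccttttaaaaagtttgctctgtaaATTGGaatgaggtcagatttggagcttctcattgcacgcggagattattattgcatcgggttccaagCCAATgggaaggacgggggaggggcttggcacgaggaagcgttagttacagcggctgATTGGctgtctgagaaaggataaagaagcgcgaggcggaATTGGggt
The search covered the TCF/LEF core CTTTGA, bound by the factors that mediate Wnt/β-catenin signalling, which 13.9% of all 32536 RefSeq windows of the same length contain, and it was in 0 of the 6 Sox windows. The Sox core AACAAT (9.35% of all windows) and the TATA box TATAAA (12.3%) were likewise in 0 of 6. CCAAT (33.8% of windows) was in 5 of 6. Sox4 had 4 matches, with first bases 171, 104, 47 and 8 bases before the RefSeq start, and Sox2 had 1, at 46 bases. The Sox4 match nearest to that start lies inside the GENCODE exon block of Sox4. The GC box GGGCGG (33.0%) was in 5 of 6 and not in Sox4. Sox8 was the 1 window with the E-box CACGTG (6.04%), 152 bases before the start. The Sox4 window had 50.8% G and C, below the median of 52.4% over all windows, whereas Sox2 had 72.0%, Sox8 65.6% and Sox11 58.0%. These matches are letters in a window and not binding sites, and no match says only that the letters are not within these 250 bases.

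Of the 9 genes, 8 passed the filter on low values (at least 1 CPM in at least 3 libraries), as 13845 of all entries did, and Sox10 did not. Differences were tested with limma on log2(CPM + 0.3) over the whole table, and a gene is said to have risen or fallen where its Benjamini-Hochberg adjusted p was under 0.05. Across the 5 groups all 8 tested Sox genes differed by limma's F test, as did 94.2% of all tested genes. That background is high in every comparison, so the number of Sox genes called is not particular to them, and what follows rests on direction and size.

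In the 2 days after explantation, Sox genes departed from Day 10 in both directions under either stimulus. In Day 12 +Wnt against Day 10 Rx::GFP+, 8 of 8 were called, where 60.2% of all genes were: 5 were higher (30.6% of all genes) and 3 lower (29.6%). In Day 12 +Fgf against Day 10 Rx::GFP+, 5 of 8 were called against 55.7% of all genes, with Sox8 and Sox9 higher (27.9% of all genes) and Sox3, Sox4 and Sox12 lower (27.8%). From Day 12 to Day 15 in +Fgf, Sox4, Sox8, Sox9 and Sox12 rose and none fell, so 4 of 8 were called, against 57.1% of all genes (27.2% higher, 29.9% lower). Over the same days in +Wnt 6 of 8 were called, against 68% of all genes, with Sox4 and Sox9 higher (32.5% of all genes) and Sox2, Sox3, Sox8 and Sox12 lower (35.5%).

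Set against each other on the same day, the stimuli split the 8 genes evenly at Day 12 and unevenly at Day 15. At Day 12, Sox2, Sox8, Sox9 and Sox11 were higher in +Fgf and Sox1, Sox3, Sox4 and Sox12 higher in +Wnt, so 8 of 8 were called where 51.5% of all genes were (26.3% higher and 25.2% lower in +Fgf). At Day 15, Sox2, Sox3, Sox4, Sox8, Sox9 and Sox11 were higher in +Fgf and Sox1 lower, so 7 of 8 were called where 68.7% of all genes were (38% higher, 30.6% lower). The median log2 difference of the 8 genes between +Fgf and +Wnt was -0.0031 at Day 12 and 0.51 at Day 15, and that of all tested genes was -0.0021 and 0.05. Over the whole course from Day 10, Day 15 +Fgf had 4 Sox genes higher and Sox12 lower, 5 of 8 called against 72.6% of all genes (36.2% higher, 36.4% lower). Day 15 +Wnt had Sox1, Sox4 and Sox9 higher and the other 5 lower, 8 of 8 called against 79.8% of all genes (39.6% higher, 40.2% lower). These comparisons share samples with one another, so their counts are not independent.

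The change from Day 12 to Day 15 differed between the stimuli for Sox3, Sox4, Sox8 and Sox12, all 4 in favour of +Fgf, while no Sox gene passed in the other direction. Among all tested genes 47.9% passed this test, 27% in favour of +Fgf and 20.9% in favour of +Wnt. The plot of differences between stimuli and between days shows both views.

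**Figure D1:**
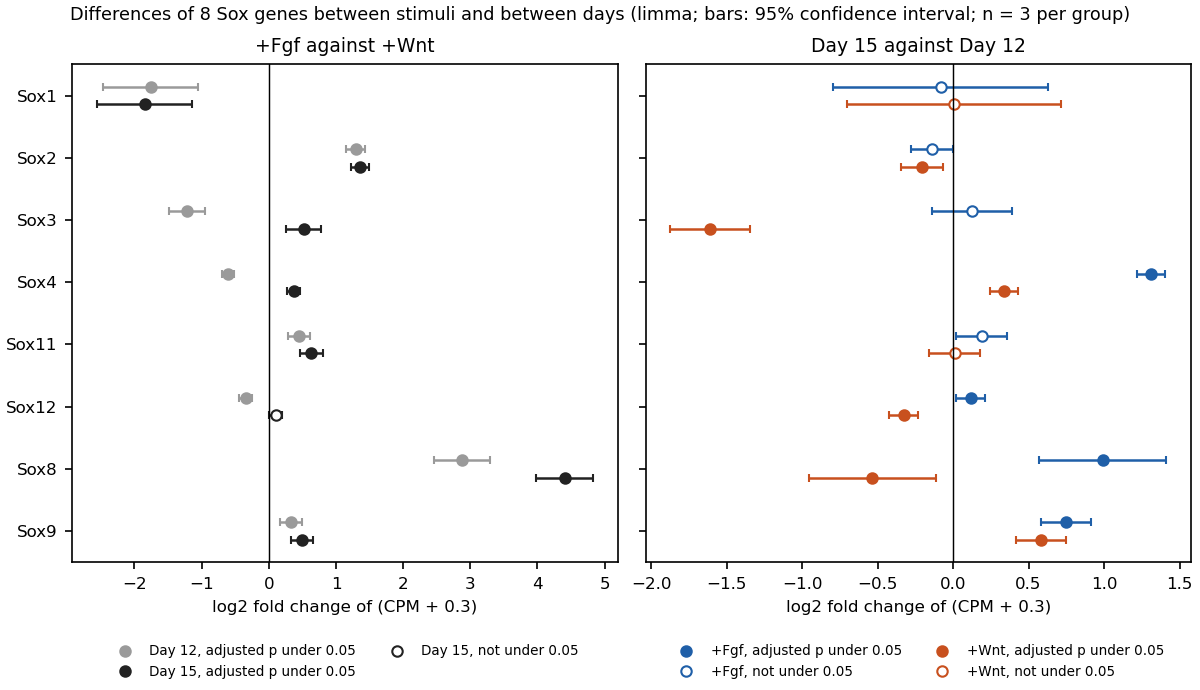
Log2 fold change of CPM + 0.3 for the 8 tested Sox genes (rows), with points for limma estimates, bars for 95% confidence intervals and open points for an adjusted p not under 0.05. On the left, +Fgf against +Wnt at Day 12 (grey) and Day 15 (black), where Sox3 moved from -1.22 to 0.52 and Sox4 from -0.61 to 0.37. On the right, Day 15 against Day 12 within +Fgf (blue) and within +Wnt (orange), where Sox4 rose by 1.31 and 0.34.

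Sox2, the SoxB1 factor of pluripotent cells and neural progenitors, separated the stimuli within 2 days. It was at 218, 259.7 and 249 CPM in the 3 Day 10 Rx::GFP+ libraries, at 266, 267 and 267 CPM in Day 12 +Fgf, and at 242, 239.6 and 245 CPM in Day 15 +Fgf. In the +Wnt libraries it was at 109.8, 113 and 104 CPM at Day 12 and at 85.2, 103 and 95.6 CPM at Day 15. Every +Wnt library was below every Day 10 and +Fgf library, and the 2 +Wnt groups themselves did not overlap. The mean level in Day 12 +Wnt was 2.23-fold lower than at Day 10 (log2 -1.15, SE 0.06, adjusted p = 7.17e-10). +Fgf exceeded +Wnt 2.45-fold at Day 12 (log2 1.29, SE 0.06, adjusted p = 7.58e-11) and 2.57-fold at Day 15 (log2 1.36, SE 0.06, adjusted p = 1.4e-11). Within +Wnt it fell by a further 0.21 on the log2 scale from Day 12 to Day 15 (adjusted p = 0.0097), a call that ended with the edgeR quasi-likelihood test on reads (adjusted p = 0.0585), with quantile normalization (adjusted p = 0.117) and without Day 15 +Wnt replicate 1 (adjusted p = 0.0703). The Day 12 +Fgf level did not pass against Day 10 (log2 0.14, 95% confidence interval 0.0074 to 0.28, adjusted p = 0.0687).

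Sox2 lies within Sox2ot, a long noncoding RNA on the same strand with which it shares no exon base, and the pair moved in opposite directions in +Wnt. The entry that holds Sox2ot together with the microRNA Mir1897 was at 2.32, 2.34 and 2.67 CPM at Day 10, at 5.1, 4.94 and 6.02 CPM in Day 12 +Wnt, followed by 13.5, 13.2 and 9.33 CPM in Day 15 +Wnt. Its +Wnt libraries were above all those of Day 10 and of +Fgf, in which it ranged from 1.98 to 4.03 CPM. It rose by 1.04 on the log2 scale from Day 10 to Day 12 +Wnt (SE 0.19, adjusted p = 1.98e-04) and stood 2.15 above Day 10 at Day 15 (SE 0.19, adjusted p = 1.75e-08).

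Sox3, the SoxB1 gene of the X chromosome, rose and then fell in the +Wnt course. Its levels were 45.9, 45.6 and 49.1 CPM at Day 10, 95.4, 82.6 and 73.0 CPM in Day 12 +Wnt, and 24.2, 23.3 and 35.1 CPM in Day 15 +Wnt. In the +Fgf libraries they were 33.8, 39.8 and 33.5 CPM at Day 12 and 39.1, 38.0 and 39.5 CPM at Day 15. All Day 12 +Wnt libraries were therefore above, and all Day 15 +Wnt libraries below, those of Day 10. It rose by 0.82 on the log2 scale (SE 0.12, adjusted p = 2.86e-05) and then fell by 1.61 from Day 12 to Day 15 (SE 0.12, adjusted p = 8.075e-09), a mean 3.04-fold lower. At Day 12 it was 2.34-fold higher in +Wnt than in +Fgf, and at Day 15 it was 1.41-fold higher in +Fgf (adjusted p = 0.00146). The change over those days differed between the stimuli by 1.73 (95% confidence interval 1.36 to 2.11, adjusted p = 6.56e-07).

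Sox1, the SoxB1 gene that marks early neural tissue, was the least even of the tested members. It was at 7.29, 12.2 and 17.9 CPM at Day 10, at 6.97, 11.2 and 4.79 CPM in Day 12 +Fgf, followed by 4.5, 7.42 and 9.4 CPM in Day 15 +Fgf. In +Wnt it was at 37.1, 21.2 and 20.3 CPM at Day 12 and at 20.7, 29.8 and 26.2 CPM at Day 15. The +Wnt libraries were above all others, while the Day 10 and +Fgf libraries overlapped. Its SD within a group came to 18.1% to 42.6% of the mean, against 0.188% to 9.22% for Sox2. +Wnt exceeded +Fgf 3.42-fold at Day 12 (log2 -1.76 for +Fgf against +Wnt, SE 0.34, adjusted p = 3.34e-04) and 3.6-fold at Day 15 (log2 -1.85, SE 0.34, adjusted p = 1.21e-04). Against Day 10 it rose by 1.09 in Day 12 +Wnt (adjusted p = 0.0105) and stood 1.09 higher in Day 15 +Wnt (adjusted p = 0.0069). When RIN, a score of RNA integrity, was added to the fit, the Sox1 call at Day 15 between the stimuli ended (log2 -0.73, adjusted p = 0.299), as did those of Day 12 +Wnt (0.49, adjusted p = 0.304) and Day 15 +Wnt (0.47, adjusted p = 0.289) against Day 10. The Day 12 +Wnt rise was also lost without Day 10 Rx::GFP+ replicate 1 (0.75, adjusted p = 0.0689) or Day 12 +Wnt replicate 1 (0.81, adjusted p = 0.0638), and the Day 15 +Wnt rise without Day 10 Rx::GFP+ replicate 1 (0.76, adjusted p = 0.052).

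The unevenness of Sox1 was shared by Sox21, a SoxB gene outside the 3 groups, and in part by genes of other tissue. Sox21 was at 35.7, 18.4 and 18.8 CPM in Day 12 +Wnt, followed by 12.5, 20.5 and 22.5 CPM in Day 15 +Wnt, so that in Day 12 +Wnt replicate 1 was the highest for both and in Day 15 +Wnt the lowest. Over the 15 libraries, after each group's mean was subtracted from the log2 values, the correlation of Sox1 was 0.83 with Sox21, 0.63 with Tbr1 of cortical neurons, 0.56 with Emx2 of the cortex and 0.52 with Pou5f1 of ES cells (Pearson r, a description over libraries that share their handling). Pou5f1 was at 12.4, 6.68 and 5.36 CPM in Day 12 +Wnt, followed by 2.05, 11.9 and 11.9 CPM in Day 15 +Wnt. The 6 ES cell markers summed to 35.0 to 45.3 CPM at Day 10, 5.37 to 15.1 and 3.32 to 14.1 CPM in the +Fgf groups, and 20.9 to 48.8 and 16.8 to 46.7 CPM in the +Wnt groups of Day 12 and Day 15. The 6 forebrain markers summed to 132 to 168 CPM at Day 10, to 92.5 to 143 and 103 to 192 CPM in +Fgf, and to 212 to 258 and 372 to 427 CPM in +Wnt, and within a group they did not always follow Sox1. In Day 15 +Fgf, replicate 1 was lowest for Tbr1 (0.885, 26.2 and 41.2 CPM), as it was for Sox1. In Day 12 +Wnt, where replicate 1 was highest for Sox1, it was lowest for Tbr1 (63.7, 71.8 and 88.0 CPM) and for Emx2 (96.3, 133.8 and 125 CPM), and in Day 15 +Wnt it was lowest for Sox1 but not for Tbr1 (176, 216 and 174 CPM). The part of these genes in the Sox1 result was not tested.

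**Figure D2:**
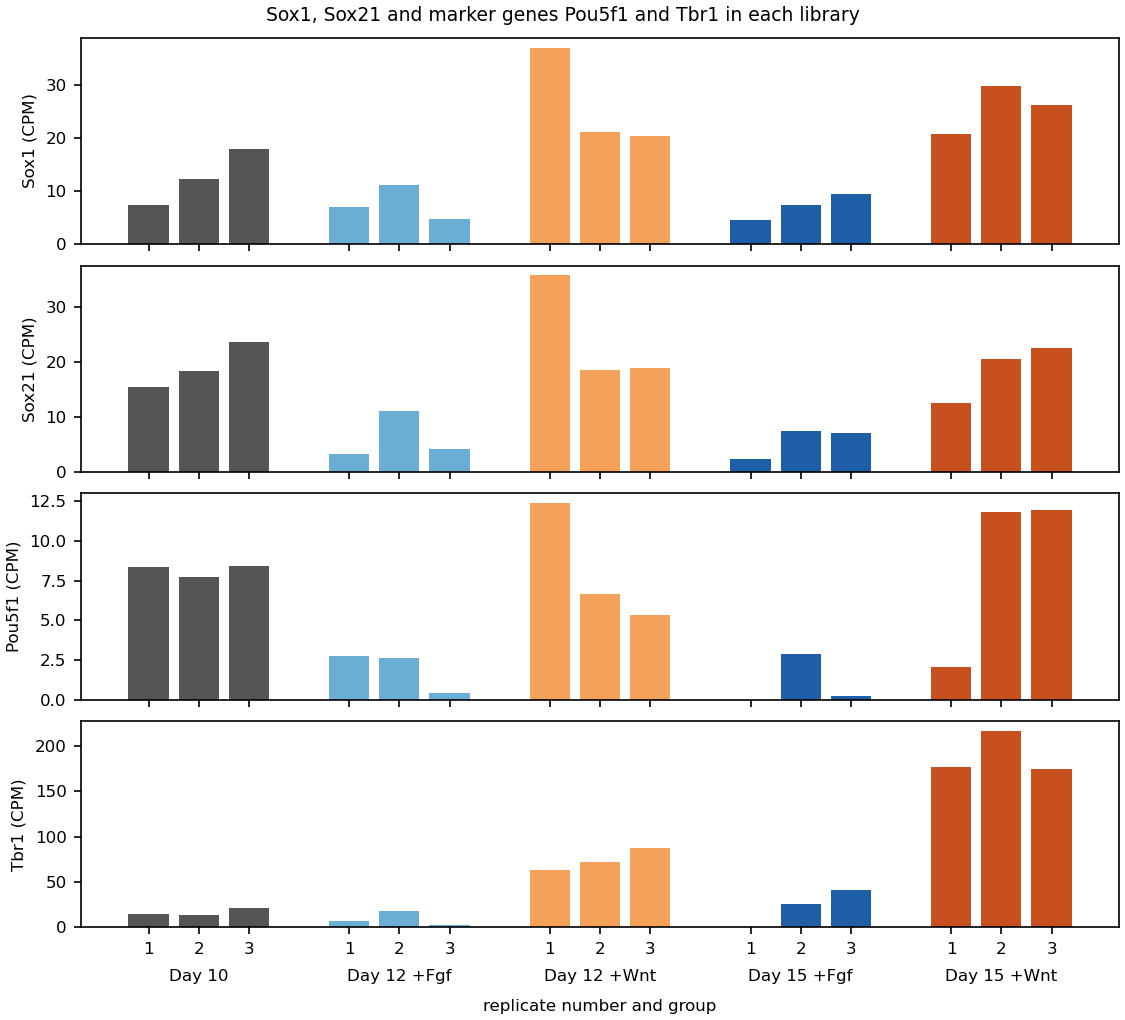
Levels in CPM (vertical axes, from 0) of Sox1, Sox21, the ES cell marker Pou5f1 and the cortical neuron marker Tbr1 in each of the 15 libraries, with 1 bar per replicate in each of the 5 groups. Sox1 and Sox21 are highest together in Day 12 +Wnt replicate 1 (37.1 and 35.7 CPM), and in Day 15 +Wnt replicate 1 both are lowest of their group together with Pou5f1 (2.05 CPM).

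Divided by GENCODE exon length, the 3 SoxB1 genes summed to 143 CPM per kb (SD 11.7) at Day 10. The sum was 148.6 (SD 2.49) and 138 (SD 1.92) in Day 12 and Day 15 +Fgf. It was 98.8 (SD 8.64) and 64.5 (SD 6.23) in Day 12 and Day 15 +Wnt. Sox2 gave 82.3% (SD 1.22) of that sum at Day 10, 87.3% (SD 1.38) in Day 12 +Fgf and 85.3% (SD 0.31) in Day 15 +Fgf. Its share was 53.7% (SD 3.42) in Day 12 +Wnt, where Sox3 gave 40.9% (SD 1.97), and 71.2% (SD 3.39) in Day 15 +Wnt, where Sox1 gave 8.16% (SD 0.90). The ranges of the Sox2 share in the 2 +Wnt groups, 49.8% to 56.1% and 67.5% to 74.0%, overlapped neither each other nor those of the other groups.

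A list of 12 genes known as partners or targets of SoxB1 factors was called for all 12 members at Day 12 between the stimuli, 6 higher and 6 lower in +Fgf, with a median log2 difference of -0.07, where 51.5% of all genes were called (26.3% higher, 25.2% lower). The largest differences at Day 12 were those of the eye field gene Rax (2.31) and the POU factor gene Pou3f1 (1.62), higher in +Fgf, and of Pou3f4 (-2.02) and Pou3f3 (-1.84), higher in +Wnt. At Day 15, 7 were higher, 4 lower and 1 was not called, with a median of 1.44, where 68.7% of all genes were called, and Rax (5.77) and Pou3f1 (3.4) again led in +Fgf, Pou3f3 (-2.09) and Fabp7 (-2.07), a radial glia gene, in +Wnt. Pou3f3 was uneven in Day 15 +Fgf, at 1.18, 19.9 and 23.1 CPM.

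Sox4, a SoxC gene of differentiating neurons, ended above Day 10 in both courses, after an early rise in +Wnt and a slight early fall in +Fgf. It was at 118, 121 and 123 CPM at Day 10, at 112, 107 and 109.5 CPM in Day 12 +Fgf, followed by 281, 267 and 267 CPM in Day 15 +Fgf. In +Wnt it was at 172, 169.5 and 159 CPM at Day 12 and at 202, 218 and 211 CPM at Day 15. No 2 of the 5 groups overlapped. Against Day 10 it rose by 0.47 in Day 12 +Wnt (SE 0.04, adjusted p = 1.38e-07) and fell by 0.14 in Day 12 +Fgf (SE 0.04, adjusted p = 0.0116), a fall that missed the threshold with quantile normalization (adjusted p = 0.0536) and with RIN as a covariate (adjusted p = 0.0759). From Day 12 to Day 15 it rose 2.49-fold in +Fgf (log2 1.31, SE 0.04, adjusted p = 2.24e-12) and 1.26-fold in +Wnt (log2 0.34, SE 0.04, adjusted p = 3.04e-06), and the 2 changes differed by 0.98 (95% confidence interval 0.85 to 1.1, adjusted p = 4.32e-09). The difference between +Fgf and +Wnt was -0.61 at Day 12 (adjusted p = 5.21e-09) and 0.37 at Day 15 (adjusted p = 9.73e-07). Both signs and both calls held in all 19 settings in which they were computed.

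Sox11, the second neuronal SoxC gene, was above its Day 10 level by Day 15 in +Fgf and fell in +Wnt. It was at 410.2, 469.8 and 439 CPM at Day 10, at 467, 507 and 438 CPM in Day 12 +Fgf, followed by 544, 535 and 532 CPM in Day 15 +Fgf. In +Wnt it was at 332, 341 and 359 CPM at Day 12 and at 303, 403 and 341 CPM at Day 15. Day 15 +Fgf stood 0.29 above Day 10 on the log2 scale (SE 0.08, adjusted p = 0.00374), without overlap. Each +Wnt library was below every Day 10 and +Fgf library. In Day 12 +Wnt it was 0.35 below Day 10 on the log2 scale (SE 0.08, adjusted p = 0.00117), and +Fgf exceeded +Wnt by 0.45 at Day 12 (SE 0.08, adjusted p = 1.62e-04) and by 0.63 at Day 15 (SE 0.08, adjusted p = 2.47e-06). Day 15 +Wnt was lower than Day 10 by 0.34 (adjusted p = 8.81e-04), but quantile normalization, which moved the median of all genes in this comparison by -0.107, left a difference of -0.04 (adjusted p = 0.585). The rise from Day 12 to Day 15 in +Fgf did not pass (log2 0.19, 95% confidence interval 0.02 to 0.36, adjusted p = 0.0505) and did so in 9 of the 19 settings.

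Sox12, the third SoxC gene, changed least. It was at 165, 171 and 152 CPM at Day 10, at 139, 141 and 137 CPM in Day 12 +Fgf, followed by 154, 155 and 144 CPM in Day 15 +Fgf. In +Wnt it was at 179.7, 177 and 174 CPM at Day 12 and at 144, 136 and 143 CPM at Day 15. The 2 Day 12 groups lay on either side of Day 10 without overlap, while the 2 Day 15 groups overlapped. Against Day 10 it fell by 0.22 in Day 12 +Fgf (SE 0.05, adjusted p = 6.82e-04) and rose by 0.12 in Day 12 +Wnt (SE 0.05, adjusted p = 0.0348), the latter called in 11 of 19 settings. In Day 15 +Wnt it was 0.21 below Day 10 (adjusted p = 5.97e-04), a direction that turned with quantile normalization (0.04, adjusted p = 0.411). The small rise of 0.12 from Day 12 to Day 15 in +Fgf (adjusted p = 0.0426) and the Day 15 +Fgf level 0.11 below Day 10 (adjusted p = 0.0472) were called in 11 and 9 of 19 settings, and the latter also turned sign with quantile normalization (0.0033). At Day 15 the stimuli did not pass (0.10, 95% confidence interval 0.0019 to 0.20, adjusted p = 0.0655), whereas at Day 12 +Fgf was lower by 0.34 (adjusted p = 1.035e-05), and the change between these days differed by 0.44 (adjusted p = 3.71e-05).

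Per kilobase, the 3 SoxC genes summed to 114.6 CPM per kb (SD 4.88) at Day 10, 111 (SD 4.36) in Day 12 +Fgf, 116 (SD 0.47) in Day 12 +Wnt, 155 (SD 3.4) in Day 15 +Fgf and 118 (SD 6.84) in Day 15 +Wnt. This sum was highest in Day 15 +Fgf, and the share of Sox4 in it went from 21.9% (SD 0.92) at Day 10 to 36.5% (SD 0.48) in Day 15 +Fgf and 37.4% (SD 0.72) in Day 15 +Wnt. Of the 9 genes' summed level per kilobase, SoxC gave 43.0% (SD 1.4) at Day 10 and 60.0% (SD 1.31) in Day 15 +Wnt, and SoxB1 gave 53.5% (SD 1.52) and 32.9% (SD 1.45).

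**Figure D3:**
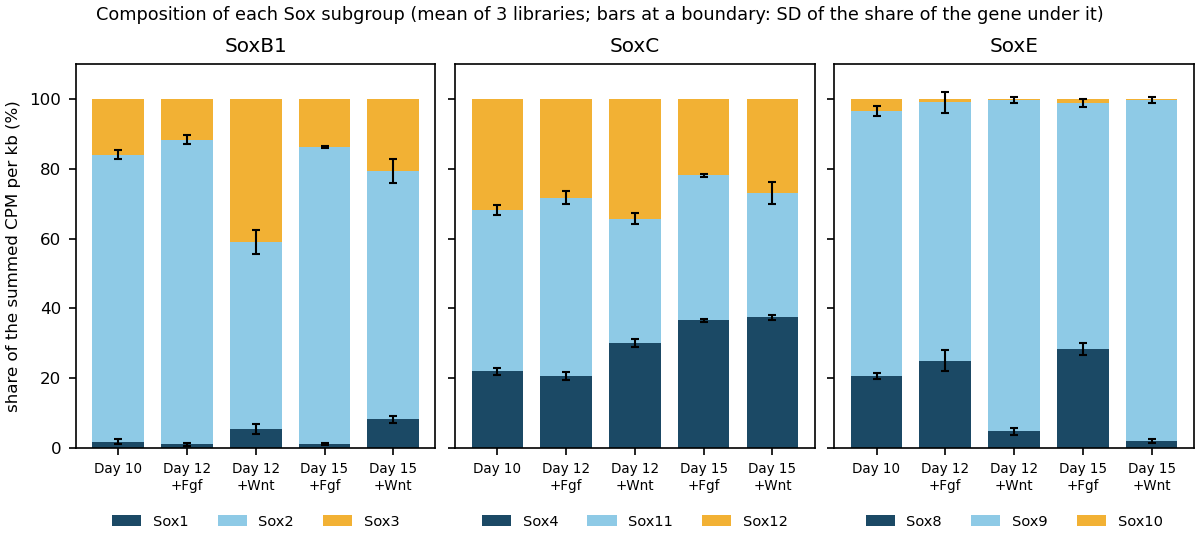
Share (%, vertical axis) of each gene in the summed level per kilobase of its subgroup, in the 5 groups, as the mean of 3 libraries with the SD of the lower gene at each boundary. Sox3 reaches 40.9% of SoxB1 in Day 12 +Wnt, Sox4 goes from 21.9% of SoxC at Day 10 to 36.5% in Day 15 +Fgf, and Sox8 gives 28.4% of SoxE in Day 15 +Fgf and 2.04% in Day 15 +Wnt.

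A list of 12 genes was set beside SoxC, most of them neuronal and some known SoxC targets. At Day 12, 4 were higher and 7 lower in +Fgf than in +Wnt (median log2 difference -0.77). Of all genes, 26.3% were higher and 25.2% lower. At Day 15, 9 were higher and 1 lower (median 0.87), against 38% and 30.6% of all genes. Stmn2, Gap43, Elavl4 and Pou4f1 were called lower at Day 12 and higher at Day 15, while Atoh7, Pou4f2, Isl1 and Tead2 were higher at both days. Tead2 is not a neuronal gene, and its mean went from 441.8 CPM at Day 10 to 303.6 in Day 15 +Fgf and 197.2 in Day 15 +Wnt. The largest differences at Day 12 were in the ganglion cell genes Pou4f2 (4.89) and Atoh7 (4), higher in +Fgf, and in Dcx (-2.25) and Tubb3 (-1.29) of young neurons, higher in +Wnt. At Day 15 Atoh7 (8.13) and Isl1 (6.93) led in +Fgf, and Dcx (-0.97), lower at both days, was the 1 gene lower. Over the 3 +Wnt libraries, Pou4f2 had 6 and Atoh7 21 reads at Day 12, and Atoh7 had 3 and Isl1 29 at Day 15. The sizes of these differences therefore depend on the 0.3 added before the log. The change between the days differed in favour of +Fgf for 11 of the 12, against 27% of all genes. Their part in the SoxC levels was not tested.

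Sox9, the SoxE gene of retinal progenitors and Müller glia and of cartilage, rose in every step. It was at 28.1, 30.2 and 29.7 CPM at Day 10, at 47.8, 42.6 and 53.1 CPM in Day 12 +Fgf, followed by 80.3, 79.7 and 80.5 CPM in Day 15 +Fgf. In +Wnt it was at 40.8, 38.2 and 34.2 CPM at Day 12 and at 53.4, 60.0 and 56.5 CPM at Day 15. No +Wnt library reached the +Fgf libraries of its own day. By Day 15 it stood 2.73-fold above Day 10 in +Fgf (log2 1.44, SE 0.08, adjusted p = 5.97e-11) and 1.93-fold in +Wnt (log2 0.94, SE 0.08, adjusted p = 6.45e-09). The excess of +Fgf was 0.34 at Day 12 (SE 0.08, adjusted p = 0.00164) and 0.5 at Day 15 (SE 0.08, adjusted p = 2.28e-05), and the changes between these days did not differ by the test (0.16, 95% confidence interval -0.07 to 0.4, adjusted p = 0.233). Sox9 is also a gene of mesenchyme, and the 6 mesenchyme markers summed to 45.9 to 50.7 CPM at Day 10, 117 to 175 and 105 to 124 CPM in Day 12 and Day 15 +Fgf, and 75.8 to 94.9 and 357 to 438 CPM in Day 12 and Day 15 +Wnt. Both Sox9 and this sum were higher in each Day 12 group than at Day 10, and higher at Day 15 than at Day 12 in +Wnt. In +Fgf, Sox9 rose between these days while the ranges of the sum overlapped. At Day 12 Sox9 and the sum were higher in +Fgf than in +Wnt, whereas at Day 15 Sox9 was higher in +Fgf and the sum in +Wnt. The Day 12 excess of the sum lay mostly in Col1a1 (means 23.9 CPM in +Fgf and 3.06 in +Wnt) and Col1a2 (63.3 and 12.4 CPM). Of the 6 markers, 2 were called higher and 3 lower in +Fgf at Day 12, against 26.3% and 25.2% of all genes. Their median log2 difference was -0.15. The part of mesenchyme in the Sox9 result was not tested.

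Sox8, the SoxE gene closest to Sox9, showed the widest split between the stimuli of the 8 tested genes. It was at 6.06, 6.15 and 5.65 CPM at Day 10 and climbed to 14.4, 9.24 and 13.2 CPM in Day 12 +Fgf, followed by 26.0, 23.7 and 23.3 CPM in Day 15 +Fgf. In +Wnt it was at 1.51, 1.74 and 0.993 CPM at Day 12 and at 0.993, 0.597 and 1.05 CPM at Day 15, which were 64 reads in the 3 Day 12 libraries and 39 in those of Day 15. Day 10 lay between the stimuli without overlap on either side. From Day 10 it rose 2.06-fold to Day 12 +Fgf (log2 0.98, SE 0.2, adjusted p = 5.29e-04) and was 4.21-fold lower in Day 12 +Wnt (log2 -1.89, SE 0.2, adjusted p = 6.005e-07). +Fgf exceeded +Wnt 8.69-fold at Day 12 (log2 2.88, SE 0.2, adjusted p = 3.64e-09) and 27.7-fold at Day 15 (log2 4.41, SE 0.2, adjusted p = 7.45e-12). The rise within +Fgf from Day 12 to Day 15 was 0.99 (adjusted p = 4.44e-04) and missed the threshold with RIN as a covariate (0.84, adjusted p = 0.149). The fall of 0.54 within +Wnt (adjusted p = 0.0247) rested on few reads and was called in 12 of 19 settings. The change between the days differed by 1.53 (95% confidence interval 0.93 to 2.12, adjusted p = 2.965e-04).

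Sox10, the SoxE gene of neural crest and Schwann cells, was close to absent. It had 17, 13 and 11 reads at Day 10 (0.84 to 1.16 CPM) and 8, 6 and 7 in Day 12 +Fgf (0.382 to 0.507 CPM). In Day 12 +Wnt it had 1, 0 and 1 reads and in Day 15 +Wnt 3, 0 and 1. In Day 15 +Fgf it had 1 and 0 reads in replicates 1 and 2 and 43 in replicate 3 (3.04 CPM), so that 1 library sets the mean of that group. The Day 10 libraries were above those of both +Wnt groups. In a fit without the filter, the differences of -1.87 in Day 12 +Wnt (adjusted p = 0.0191) and -1.72 in Day 15 +Wnt (adjusted p = 0.0202) against Day 10 were called, and no other. In the library with 43 reads, Erbb3 of Schwann cells was at 1.56 CPM, against 0.811 and 0.824 CPM in the other replicates, while the crest gene Foxd3 was at 0.495 CPM and S100b at 0.212 CPM. Other crest genes were lowest in that library, Tfap2a at 7.0, 7.69 and 5.79 CPM and Tfap2b at 15.4, 13.3 and 12.7 CPM in replicates 1 to 3, and the 10 crest and Schwann cell markers summed to 108.7, 86.0 and 104 CPM. Their part in the Sox10 reads was not tested.

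Per kilobase, SoxE summed to 9.32 CPM per kb (SD 0.22) at Day 10 and reached 27.5 (SD 0.58) in Day 15 +Fgf and 14 (SD 0.71) in Day 15 +Wnt. Sox8 gave 20.5% (SD 0.88) of it at Day 10, 28.4% (SD 1.64) in Day 15 +Fgf and 2.04% (SD 0.64) in Day 15 +Wnt, so that in +Wnt the SoxE signal was almost all Sox9.

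**Figure D4:**
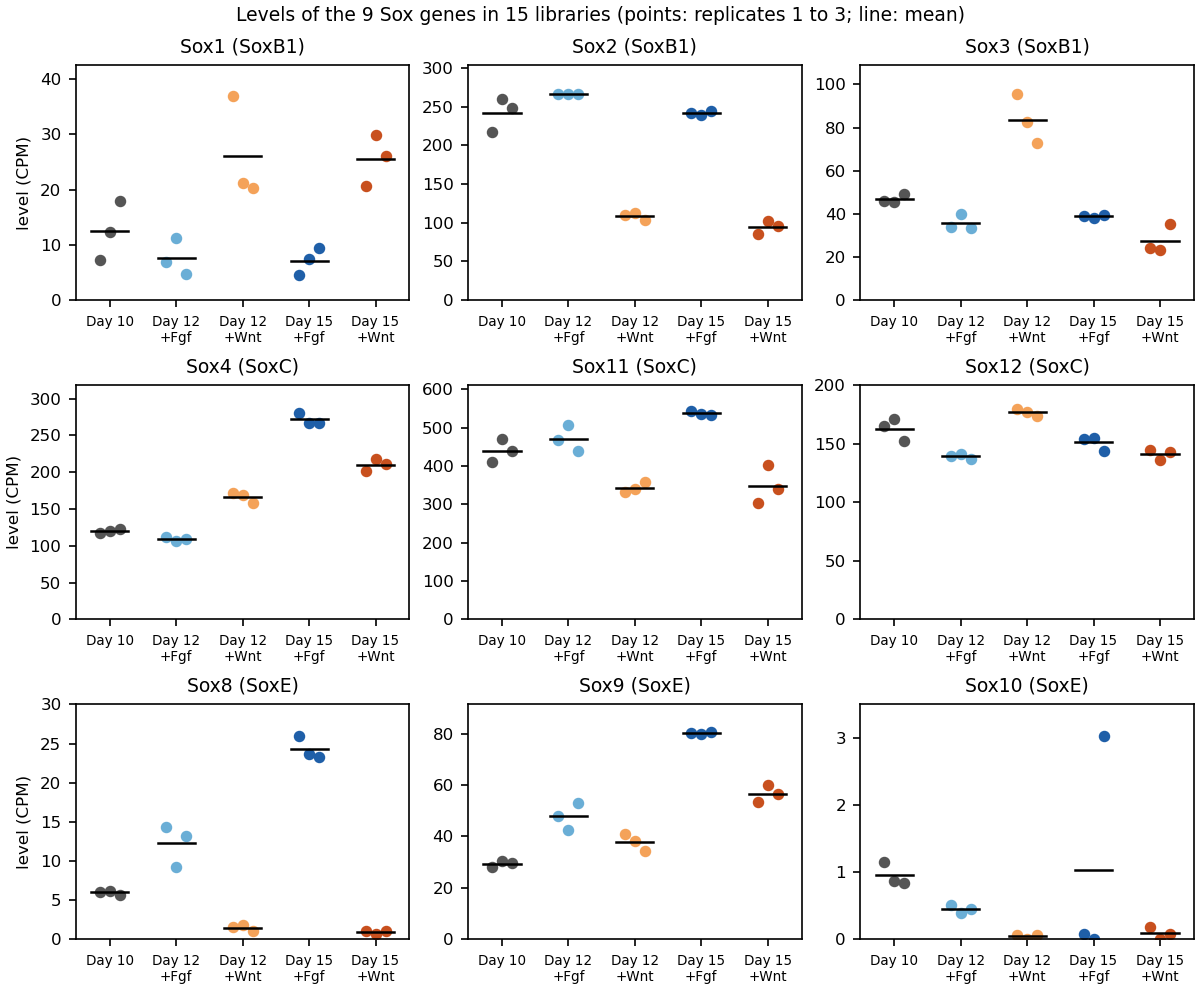
Levels in CPM (vertical axes, from 0) of the 9 Sox genes in the 5 groups (horizontal axis), with 1 point per library and a line at the mean of 3. Sox2 falls to 85.2 to 113 CPM in the +Wnt groups, Sox8 climbs to 23.3 to 26.0 CPM in Day 15 +Fgf, and the single high Sox10 point is Day 15 +Fgf replicate 3 at 3.04 CPM.

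Genes known beside SoxE factors in other tissues were counted in 3 lists, against a background of 26.3% of all genes higher and 25.2% lower in +Fgf at Day 12, and 38% higher and 30.6% lower at Day 15. Of 12 glial and RPE genes 8 were tested, the visual cycle and RPE genes Rpe65, Best1, Rgr and Lrat being too low. At Day 12, 3 were higher and 4 lower in +Fgf (median log2 difference -0.42), led by Hes1 (1.46) and the glutamate transporter gene Slc1a3 (0.53) on one side and the retinoid carrier gene Rlbp1 (-2.65) and Nfia (-1.32) on the other. At Day 15, 2 were higher and 4 lower (median -1.22), led by Hes1 (2.04) and Glul (0.34), and by Rlbp1 (-3.57) and Rdh5 (-3.39), an enzyme of the visual cycle. Of 10 cartilage genes 7 were tested, Acan, Matn1 and Comp being too low, and at Day 12 3 were higher in +Fgf and 2 lower (median 0.11), at Day 15 4 and 2 (median 1.24). Hapln1, a matrix link protein gene, was highest in +Fgf relative to +Wnt at both days (3.49 and 4.92). It had 12 and 3 reads over the 3 +Wnt libraries of Day 12 and Day 15, so these sizes depend on the added 0.3. The collagen genes Col9a2 (1.69) at Day 12 and Col9a1 (2.06) at Day 15 came next, while Col11a1 (-0.64 and -1.19) and Col9a3 (-0.7 and -0.83) were higher in +Wnt. Of 12 crest and Schwann cell genes 9 were tested, Foxd3 and S100b being among those under the filter. At Day 12, Ngfr (0.37) was the 1 gene higher in +Fgf and 4 were lower (median 0.1), among them Tfap2b (-2.4) and Pax3 (-2.08). At Day 15, Ngfr (1.25) and Ednrb (0.99) were higher and 4 lower (median -0.07), the furthest being the pigment cell genes Dct (-3.54) and Mitf (-3.28), which are RPE genes as well.

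With the GENCODE exon lengths used here, the mean level per kilobase was highest for Sox2 in all 5 groups. Its margin over the next gene depended on the stimulus. The RefSeq starts of Sox2 and Sox11 lie upstream of their GENCODE starts, and longer transcripts would lower their levels per kilobase. Orders with RefSeq lengths were not computed, so the Sox2 lead in Day 15 +Wnt, where it overlapped Sox4, holds for these lengths only. Sox2 was at 118 CPM per kb (SD 10.6) at Day 10, ahead of Sox11 at 52.9 (SD 3.59), Sox12 at 36.5 (SD 2.16), Sox4 at 25.1 (SD 0.54) and Sox3 at 22.7 (SD 0.95). Sox9 followed at 7.1 (SD 0.26), then Sox1 at 2.58 (SD 1.1) and Sox8 at 1.91 (SD 0.09), which overlapped, and Sox10 at 0.313 (SD 0.06). The order in Day 12 +Fgf was the same for the first 6 genes, with Sox8 (3.94, SD 0.87) then above Sox1 (1.58, SD 0.68) and no overlap between neighbours.

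In Day 12 +Wnt the top closed up: Sox2 was at 52.9 CPM per kb (SD 2.22), and the next 3, Sox11 at 41.4 (SD 1.66), Sox3 at 40.5 (SD 5.46) and Sox12 at 39.7 (SD 0.69), overlapped one after the other. Day 15 +Fgf kept a clear order of Sox2 (118, SD 1.33), Sox11 (64.6, SD 0.76), Sox4 (56.7, SD 1.7), Sox12 (33.9, SD 1.37), Sox9 (19.4, SD 0.1), Sox3 (18.8, SD 0.36) and Sox8 (7.81, SD 0.47), followed by Sox1 (1.47, SD 0.51) and Sox10 (0.34, SD 0.57), which overlapped. In Day 15 +Wnt, Sox2 (45.9, SD 4.23), Sox4 (43.9, SD 1.73) and Sox11 (42, SD 6.13) overlapped as neighbours, as did Sox9 (13.7, SD 0.81) and Sox3 (13.4, SD 3.19), and Sox8 was at 0.282 (SD 0.08). Among 25 recomputed orders, from another transcript length, another scaling or 1 left-out library, 4 exchanged places, all with a library left out in the +Wnt groups. The other length, that of the longest transcript, differed from the exon union for Sox8 and Sox10 only. The other scaling kept the order within each library. These settings could therefore hardly change the order.

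The genes whose log2 levels ran most like each Sox gene over the 15 libraries were sought among 10979 tested genes whose highest group mean was at least 10 CPM, as a description in which the points share groups. For Sox2 they were Dio3 (Pearson r = 0.988), which inactivates thyroid hormone, Klf3 (0.988) and Bcat1 (0.985). Those nearest to Sox8 were the Wnt co-receptor gene Lrp5 (0.988), Nlk (0.985) and Lman1 (0.984), and those nearest to Sox9 were Ksr1, Vstm2l and Ddr1 (all 0.984). Sox4 had Apba2 (0.980), the ephrin receptor gene Epha8 (0.976) and Fam5b (0.976). For Sox3 the Wnt receptor gene Fzd8 was nearest (0.928), then Kdm4a (0.895) and Ctbp2 (0.893). Sox11 had Cab39 (0.964), Mn1 (0.950) and Rnd3 (0.946), Sox12 had Bmi1 (0.942), Rxrg (0.933) and Rdh10 (0.910), and Sox1 had Ankrd45 (0.948), Slc22a23 (0.947) and Ccdc57 (0.927).

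Of 11 further genes of the Sox family 6 were tested and 4 reached 10 CPM in a group mean, while the others stayed at 1.58 CPM or less. The SoxD genes Sox5 and Sox6 and the SoxB gene Sox21 were higher in +Wnt at both days, and the SoxD gene Sox13 was higher in +Fgf. At Day 12, Sox6 was at 13.3, 18.7 and 10.9 CPM with +Fgf against 50.7, 42.5 and 44.6 CPM with +Wnt. At Day 15 it was at 5.9, 10.6 and 10.7 CPM against 43.1, 49.5 and 43.6 CPM, with no overlap between the stimuli on either day (Day 15 log2 -2.33, adjusted p = 1.61e-08). Sox13 fell from 47.1, 49.1 and 49.3 CPM at Day 10 to 24.2, 24.4 and 23.4 CPM by Day 15 with +Fgf, and to 9.86, 14.2 and 14.2 CPM in Day 15 +Wnt. The Day 15 log2 difference was -1.25 for Sox5 (adjusted p = 0.00364) and -1.78 for Sox21 (adjusted p = 0.00131).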

How the data were processed

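Poly(A) RNA of 15 samples was sequenced, 3 per group, with a stranded mRNA kit. Per the labels and the study's methods, the authors aligned reads to mm10 with TopHat2 2.0.8b, used Cufflinks 2.1.1 and edgeR 3.2.4, and deposited a signal per gene entry that they call CPM. Its columns sum to 936418 to 1075448, so it is a normalized signal and not counts over the library total. Within each column 100% of values were whole multiples of 1 read (tolerance 0.1 read), which gave back the reads. The median was 15073047 reads on genes per sample, and the precision of low genes is limited by those reads.

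limma 3.58.1 (R 4.3.3) was fitted with trend to log2(signal + 0.3) of the 13845 entries with at least 1 CPM in at least 3 samples, with 5 group means and Benjamini-Hochberg adjustment over all tested entries (threshold 0.05). Fold changes on this scale understate those of low genes. The code for fits and calls was run on simulated data with few changed genes and the same dispersion for every gene. That setting differs from these data, so it checks the code and not the error rates here. Alternatives were pseudocounts of 0.05 and 1, other filters and scalings, edgeR 4.0.16 and DESeq2 1.42.0 on the recovered reads, the study's listed RNA integrity number (RIN, lowest on average in Day 15 +Fgf and highest in Day 12 +Fgf, so partly shared with the groups) as a covariate, a replicate block and each library left out. Levels per kilobase used the union of GENCODE exons, and RefSeq lengths, which can differ, were not tried. Figures were drawn with matplotlib 3.10.9. No library was a repeat of another. The labels call the replicates biological but tie them to no separate culture, so p-values measure the spread between these samples.

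The members and gene lists were chosen with earlier results of these data known. Named beside the 9 genes are the other Sox genes at 10 CPM or more, the 3 genes nearest to each tested member with a group mean of at least 10 CPM, the 2 largest rises and 2 largest falls of each list between the stimuli, overlapping genes, and markers that moved with a result. Sox21, Emx2, Pou5f1, Tbr1, the genes of the list beside SoxC whose calls changed sign or held, and the Day 15 +Fgf levels of Pou3f3 were singled out after their values were seen. A few marker genes are not reported here.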

Additional observations from a re-analysis of the deposited data

Results flagged for a closer look

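For 4 Sox genes the change from Day 12 to Day 15 differed between the stimuli by limma's test of the difference itself, each with a larger log2 change in +Fgf than in +Wnt. The difference was 1.73 for Sox3 (SE 0.18, adjusted p = 6.56e-07), which fell in +Wnt. It was 1.53 for Sox8 (SE 0.28, adjusted p = 2.965e-04), 0.98 for Sox4 (SE 0.06, adjusted p = 4.32e-09), which rose in both, and 0.44 for Sox12 (SE 0.07, adjusted p = 3.71e-05), which fell in +Wnt. All 4 calls held in 25 of 25 settings. Among all tested genes 47.9% passed the same test.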

How the results depend on the processing

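Of the alternative log2 fold changes of the 8 tested Sox genes, 1253 kept direction and side of the threshold, 45 lost and 23 gained the call, and 23 changed sign. With RNA integrity as a covariate, the number of Sox genes called between Day 15 and Day 12 +Fgf was 2 in place of 4, the Sox1 difference was 1.16 (Day 15 against Day 12 +Fgf), -0.019 (Day 15 against Day 12 +Wnt) and 1.18 (the difference of these changes), and the calls over all genes for Day 15 against Day 12 +Fgf fell from 7899 to 3591. Quantile normalization gave -0.057 for Sox1 in Day 15 against Day 12 +Wnt, and for Sox12 -0.037 between the stimuli at Day 15, 0.0033 for Day 15 +Fgf and 0.040 for Day 15 +Wnt against Day 10. The cause was not tested. Median-of-ratios scaling moved the Day 12 +Fgf level per kb of Sox2 to 128 CPM and of Sox12 to 30.7 CPM. With 1 library left out at a time, some uncalled values took either sign: Sox2 Day 15 +Fgf against Day 10 (-0.069 to 0.059), Sox1 Day 15 against Day 12 +Fgf (-0.36 to 0.22) and +Wnt (-0.15 to 0.28), Sox11 Day 15 against Day 12 +Wnt (-0.097 to 0.11), and the difference of changes for Sox1 (-0.37 to 0.22) and Sox2 (-0.0044 to 0.13).

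With a replicate block, Sox2 in Day 12 +Fgf against Day 10 (0.14, adjusted p = 0.0471) and Sox11 in Day 15 against Day 12 +Fgf (0.19, adjusted p = 0.0263) were called in addition, and no Sox call was lost. Deviations of samples with the same number correlated by -0.253 to 0.245 in 30 pairs (median -0.008), with 7 over 0.1. For samples with different numbers the range was -0.334 to 0.292 in 60 pairs (median -0.008), with 14 over 0.1. The same number thus went with no higher correlation, which cannot tell whether such samples shared a culture or handling.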
